A study of Mus musculus with 16 samples.

Results

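The collagen genes are the 44 protein-coding mouse genes whose symbol has the form Col, a number, the letter a and a number, such as Col1a1 or Col11a2, among 53764 gene rows of a left ventricle count table. All 44 symbols of that form were protein-coding, and 34 of them passed the filter on low counts and were tested. RNA came from bulk left ventricle of male C57BL/6J mice that were 8 weeks old when their diets began and 4 months older at the end. The HFHS ertugliflozin group ate a diet rich in fat and sucrose (HFHS) with ertugliflozin, which blocks glucose uptake by SGLT2 in the kidney, mixed in at 0.5 mg per g. The HFHS untreated group ate the same diet without the drug. The CD ertugliflozin group ate a low-fat control diet (CD) with the drug at the same content, and the CD untreated group ate the control diet alone. Each of the 4 groups had 4 libraries, each of which is 1 animal per the labels, picked by the submitters as representative of a larger set. The p-values therefore reflect the spread among picked animals.

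Collagens are triple-helical proteins of the extracellular matrix, each molecule wound from 3 chains that may come from different genes. Fibrillar collagens (types I, III and V) form the tensile network between heart muscle cells and are made mainly by fibroblasts. Type IV collagen forms the sheet-like network of basement membranes around muscle cells and capillaries, and is made by endothelial cells, pericytes and muscle cells as well. Type VI forms beaded filaments at the border of the basement membrane, and the remaining types decorate fibrils, anchor membranes or span the cell surface. In bulk tissue a lower value from fewer cells of a type and one from less RNA per cell cannot be told apart.

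Collagens took a small share of the RNA. They held 0.293% to 0.333% of counts in HFHS ertugliflozin hearts, 0.294% to 0.393% in HFHS untreated hearts, 0.197% to 0.280% in CD ertugliflozin hearts and 0.237% to 0.339% in CD untreated hearts. Library totals ran from 14637669 to 21452212 counts, and levels are given as CPM after TMM scaling of the library totals. The largest share of the collagen RNA belonged to 2 neighbouring genes of type IV. Col4a1 and Col4a2, which encode the alpha 1 and alpha 2 chains of the common type IV network, held 36.3% to 52.0% of all collagen counts in a library, with a median of 45.5%. Col1a1, Col1a2 and Col3a1, the genes of the main fibrillar collagens, together held 20.0% to 29.0%.

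Per kb of exon, Col4a1 had the highest mean level over the 16 libraries at 102 CPM per kb and Col4a2 followed at 86.0 CPM per kb. Col3a1, the chain of type III collagen, came next at 33.8 CPM per kb. Below it stood Col6a1 at 26.6 CPM per kb, Col15a1 at 25.7 CPM per kb and Col1a1 at 22.6 CPM per kb, and the ranges of these 4 overlapped. Col1a2 was at 16.9 CPM per kb over all its annotated exons but at 39.3 CPM per kb of its longest coding transcript, which would place it at rank 4. Its rank thus depends on the length used. Col6a2 stood at 15.7 CPM per kb, Col4a5 at 9.32 CPM per kb and Col5a1 at 8.71 CPM per kb. The defining collagens of working ventricle, fibrillar, basement membrane and beaded filament, were all present, and Col2a1 and Col9a1, genes of cartilage collagens, were near 0.

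**Figure D1:**
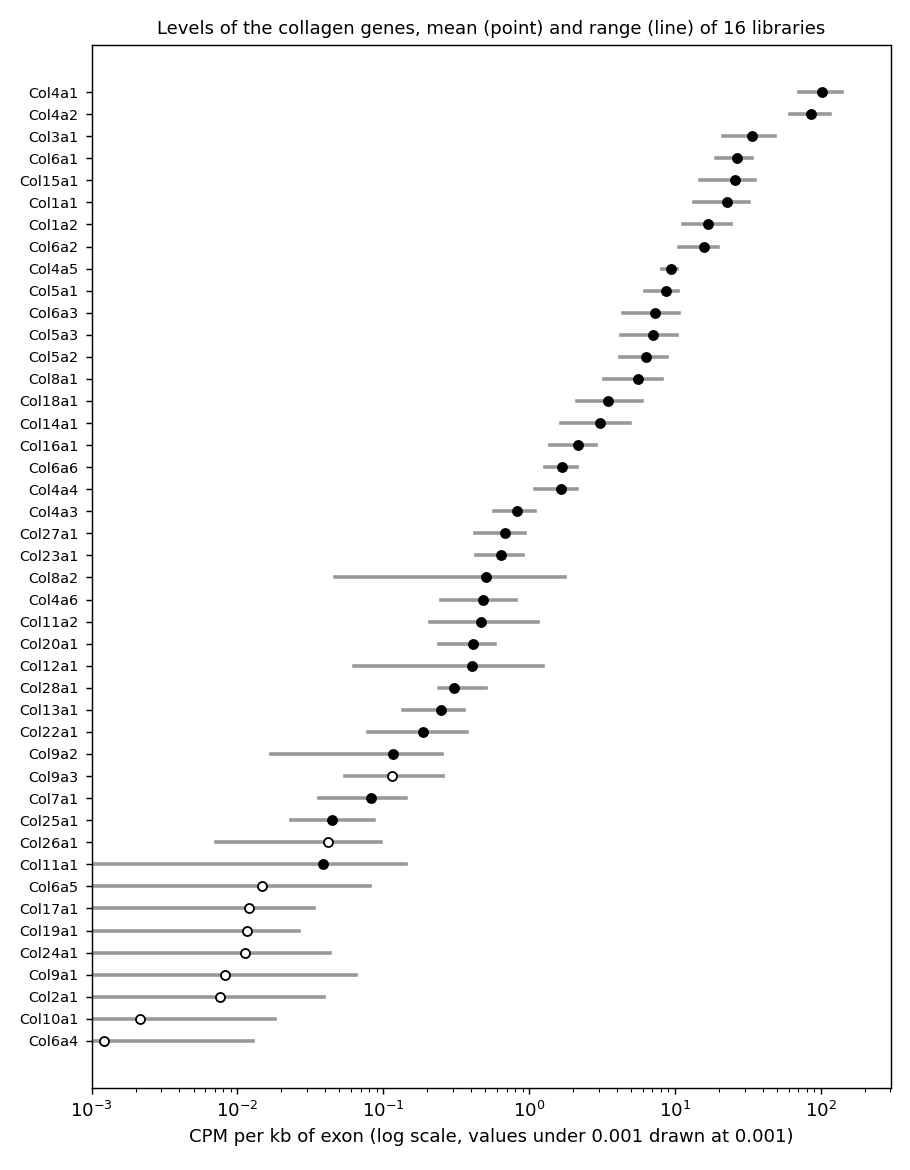
Mean level of each of the 44 collagen genes over 16 libraries (point) with the lowest and highest library (line), in CPM per kb of exon on a log axis. Filled points are the 34 tested genes and open points the 10 genes below the filter, and the genes of type IV (Col4a1 and Col4a2) lie at the top.

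Several collagen genes lie beside a partner. In GRCm38 coordinates Col4a1 (ENSMUSG00000031502) lies on chromosome 8 from 11198423 to 11312826 on the minus strand, and Col4a2 (ENSMUSG00000031503) from 11312805 to 11449287 on the plus strand, so that their annotated starts overlap by 22 bases. Col4a4 and Col4a3 also start head to head, on chromosome 1, with 71 bases between them, and Col4a6 and Col4a5 do so on chromosome X with 1308 bases between them. The sequences between or across the first 2 pairs of starts are shown because members of both pairs passed the tests below. The first is chr8:11312801-11312830 and the second chr1:82586850-82586920, both from RefSeq in GRCm38.p6 on the plus strand, and the capitals of the first mark the 22 bases that belong to both genes.
Col4a1 and Col4a2: cggcAGTGCGCGGGCGGCGTCTCCAAgggg
Col4a4 to Col4a3: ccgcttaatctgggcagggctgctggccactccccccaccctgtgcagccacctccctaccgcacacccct
The strand setting of the counting is not given in the sources used here, so reads that touch the shared bases could have been given to either gene or to neither.

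The 2 chains kept a narrow ratio. Per exonic length Col4a1 stood at 1.11 to 1.29 times Col4a2 across the 16 libraries (1.19 ± 0.05, SD). Col6a1 stood at 1.5 to 1.83 times Col6a2 over the same libraries. Col3a1 over Col1a1 varied more, at 1.52 ± 0.15 in HFHS ertugliflozin hearts, 1.65 ± 0.20 in HFHS untreated hearts, 1.58 ± 0.19 in CD ertugliflozin hearts and 1.29 ± 0.09 in CD untreated hearts (SD, n = 4 each). These ratios are given as values, without a test.

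CD untreated replicates 2 and 3 stood apart in a way that touches several members. Summed over 12 marker genes of heart valve and cartilage, levels ran from 39.9 to 103 CPM in HFHS ertugliflozin hearts, from 35.7 to 64.3 CPM in HFHS untreated hearts and from 31.1 to 96.3 CPM in CD ertugliflozin hearts. The same sum was 111, 315, 259 and 67.9 CPM in CD untreated replicates 1 to 4, so that replicate 1 also lay above every library of the other groups. Without drug 11 of the 11 tested markers were lower on HFHS, 1 of them beyond the test (Cilp2 at −3.57 ± 0.84, SE, edgeR adjusted p = 0.0468). Leaving out CD untreated replicates 2 and 3 did not even this out. In that fit 10 of 11 tested markers were still lower on HFHS without drug, with a median log2 fold change of −1.46. The marker list was chosen with earlier results of these data known, so these counts describe the libraries and are no independent support. Of the defining markers, Chad was at 0 in 4 libraries, Hapln1 in 3 and Tnmd in 6, all others being above 0 in every library. These 2 libraries were the 2 highest for 9 of the 34 tested collagens (26.5%) and for 442 of 15841 genes in all (2.79%). The 9 are Col1a1, Col1a2, Col27a1, Col11a1, Col11a2, Col12a1, Col4a6, Col8a2 and Col22a1. CD untreated replicate 1 differed in another way, with a summed atrial marker level of 1157 CPM against 143 to 400 CPM in the other 15 libraries. The part of either in the results was not tested, and results that rest on CD untreated replicates 2 and 3 are given with and without them.

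**Figure D2:**
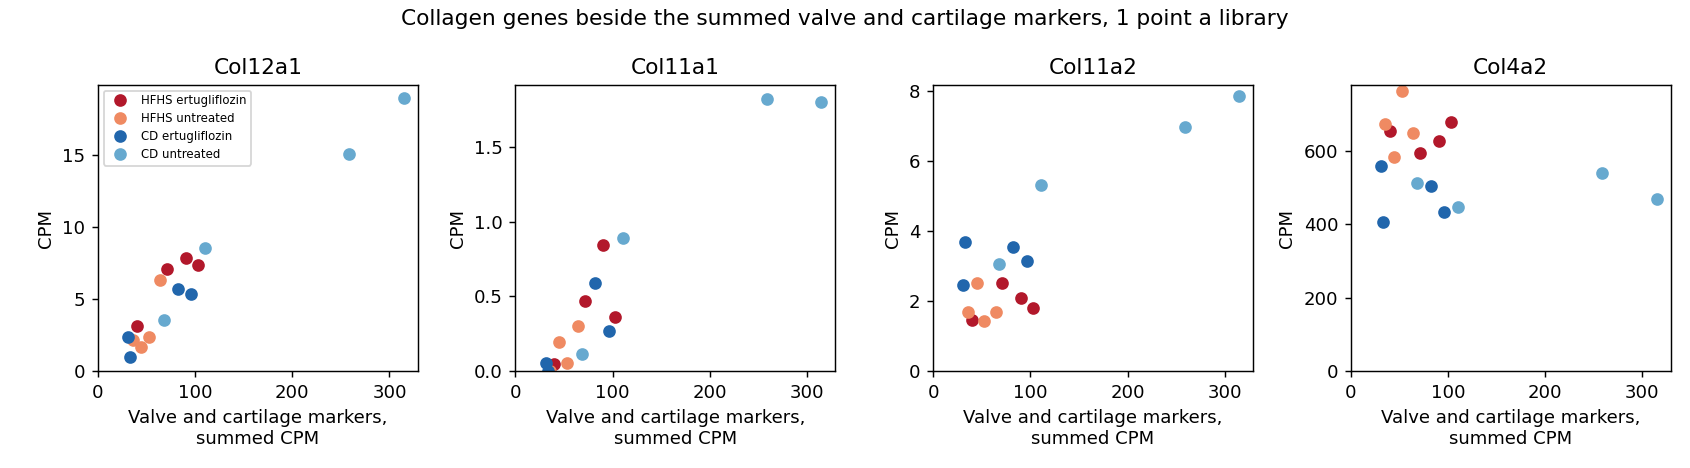
Level of Col12a1, Col11a1, Col11a2 and Col4a2 in CPM (y axis) against the summed CPM of 12 valve and cartilage markers (x axis), 1 point per library, coloured by group. The 2 CD untreated libraries at 259 and 315 CPM of markers hold the highest Col12a1, Col11a1 and Col11a2 but not the highest Col4a2.

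On the HFHS diet without drug, Col4a2 rose and Col11a2 and Col7a1 fell, while the abundant fibrillar genes did not pass the test. With ertugliflozin in both diets, Col4a2, Col6a1 and Col4a4 were higher on HFHS and no collagen was lower beyond the test. Averaged over both drug arms, 5 collagens rose, Col4a1, Col4a2, Col4a4, Col6a1 and Col15a1, and Col11a2 and Col7a1 fell. Of the 5, 3 encode type IV chains, and type VI and type XV collagen lie at or beside basement membranes. Other basement membrane genes did not pass, with Col4a5 at 0.0735, Col4a6 at −0.0217 and Col18a1 at 0.0582 over both arms. With drug the median log2 fold change was 0.37 over 9 fibrillar genes and 0.35 over 6 type IV genes. The counts stand against a background of all 15841 genes tested with edgeR's quasi-likelihood test at a Benjamini-Hochberg adjusted p under 0.05. Without drug 1 of 34 collagens rose and 2 fell, against 1.45% of all genes higher and 0.619% lower (2.06% in either direction). With drug 3 rose and 0 fell, against 2.15% and 1.53% of all genes (3.69% in either direction). Over both arms 5 rose and 2 fell, against 6.59% and 5.01% of all genes (11.6% in either direction). At an unadjusted p under 0.05 there were 9 of 34 collagens without drug (16.5% of all genes), 15 with drug (18.5% of all genes) and 11 over both arms (26.5% of all genes). The median log2 fold change of the 34 was 0.014 without drug, 0.37 with drug and 0.16 over both arms, beside −0.0018, −0.0054 and −0.0076 over all genes. Fold changes above 0 were seen in 20, 29 and 23 of the 34, against 49.6%, 48.6% and 47.7% of all genes. The median without drug and the count of calls changed when the libraries that stood apart were left out. With CD untreated replicates 2 and 3 left out, 0 of the then 35 tested collagens were called without drug and their median was 0.34. Of the genes called before, Col4a2 moved from 0.44 to 0.48, Col7a1 from −1.18 to −1.11 and Col11a2 from −1.67 to −1.20. Only 2 CD untreated libraries remained, so for the lost calls less precision and the part of those libraries cannot be told apart. In that fit 0.357% of 16226 genes rose and 0.24% fell without drug. Over both arms it called 12 collagens (10 risen, 2 fallen) with a median of 0.34, against 4.96% of all genes risen and 3.7% fallen. These 2 libraries were picked after their values were seen. Their median collagen deviations were 0.27 and 0.29 on the log2 scale, against −0.099 and −0.27 in CD untreated replicates 1 and 4. Leaving them out thus moves HFHS over CD upward, while HFHS untreated replicate 2, at 0.35, was kept.

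**Figure D3:**
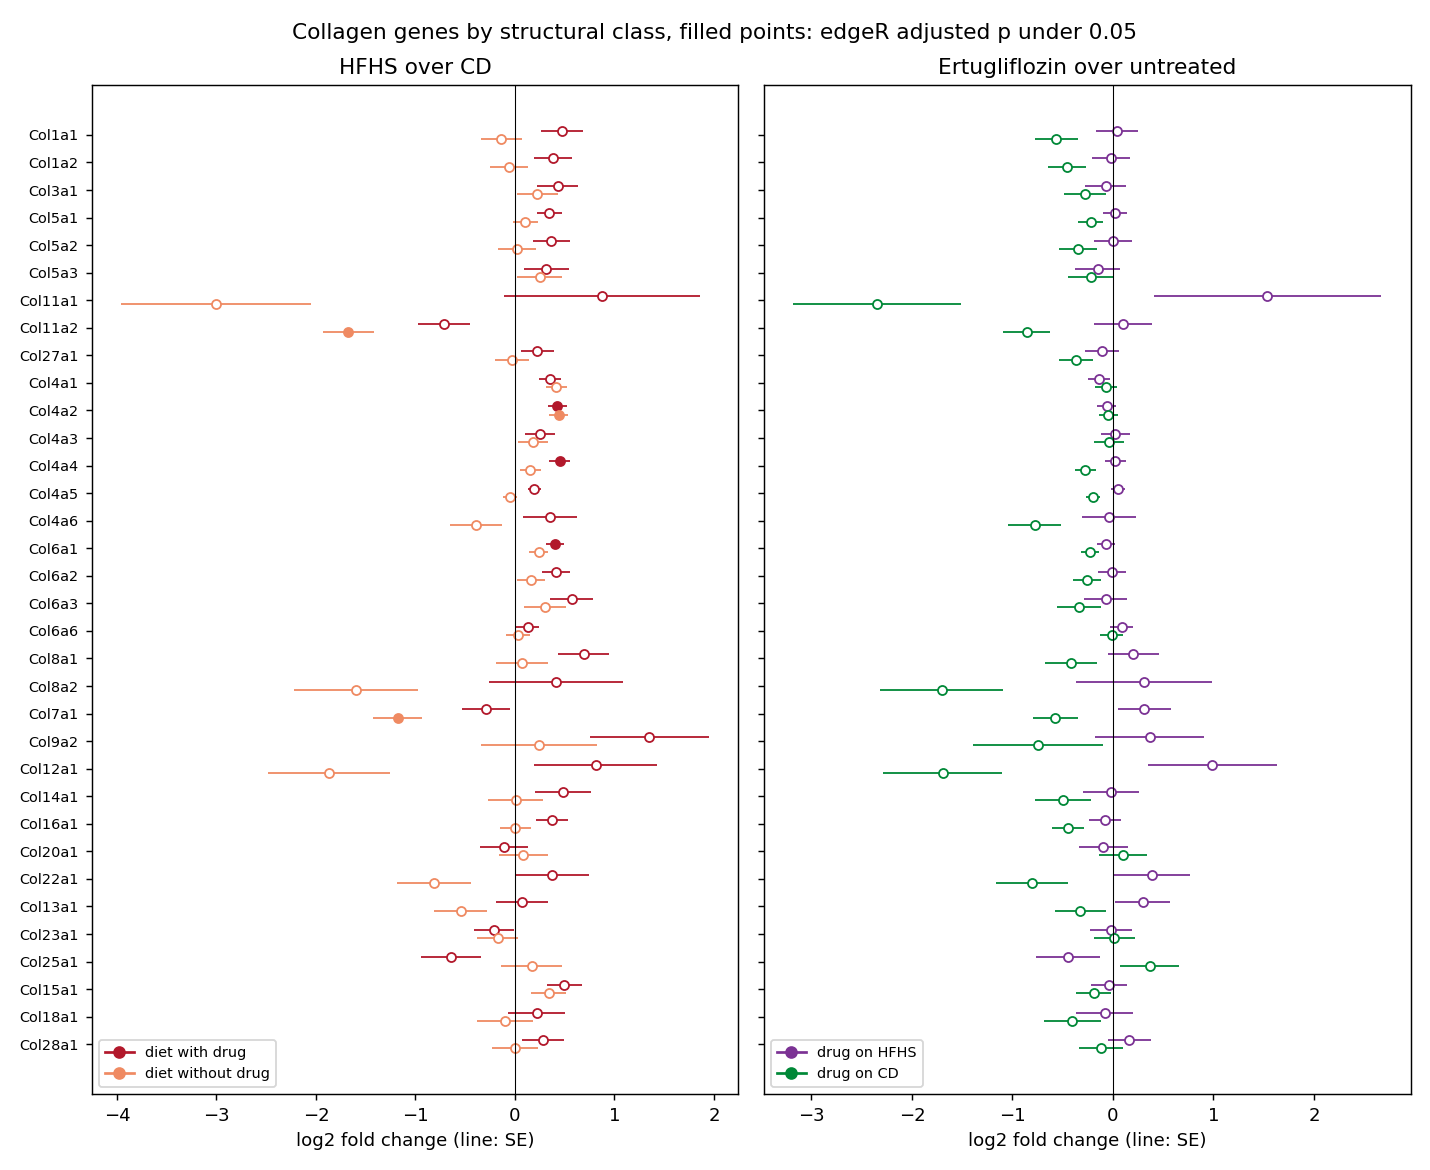
Log2 fold change with SE (lines) of the 34 tested collagens, grouped by structural class, for HFHS over CD (left, with and without drug) and ertugliflozin over untreated (right, on each diet). Filled points passed an edgeR adjusted p under 0.05, which happened for Col4a2, Col4a4, Col6a1, Col11a2 and Col7a1 in the left panel and for none in the right panel.

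Among the type IV genes was the 1 collagen that separated the diets in all 16 libraries. Col4a2 had 655, 628, 679 and 595 CPM in HFHS ertugliflozin hearts, 583, 763, 675 and 650.3 CPM in HFHS untreated hearts, 559.7, 434, 506 and 408 CPM in CD ertugliflozin hearts and 448, 470.0, 541 and 512 CPM in CD untreated hearts. All 8 HFHS libraries, at 583 CPM or more, lay above all 8 CD libraries, at 559.7 CPM or less, a separation that no other tested collagen showed and that 0.96% of all genes showed in that direction and 0.802% in the other. Its log2 fold change was 0.42 ± 0.09 with drug (SE, edgeR adjusted p = 0.0189), 0.44 ± 0.09 without (edgeR adjusted p = 0.0241) and 0.43 ± 0.07 over both arms (edgeR adjusted p = 0.000578). The call over both arms held without each of the 16 libraries and under each other setting tried. Within a single arm it was less firm. Leaving out HFHS ertugliflozin replicate 1 or 3, or replicate 2 of CD ertugliflozin, lost the call with drug (edgeR adjusted p up to 0.0589). Leaving out HFHS untreated replicate 2 or 3, or replicate 1 or 2 of CD untreated, lost the call without drug (edgeR adjusted p up to 0.079). Without CD untreated replicates 2 and 3 together it stood at 0.48 without drug (edgeR adjusted p = 0.0866), and both single-arm calls were also lost when no filter on low counts was used.

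Col4a1, the partner chain, had 844, 839, 852 and 760.3 CPM in HFHS ertugliflozin hearts, 822, 1045, 894 and 859 CPM in HFHS untreated hearts, 781, 583, 686 and 529 CPM in CD ertugliflozin hearts and 595, 653, 787 and 677 CPM in CD untreated hearts. The diet groups separated without drug, but CD ertugliflozin replicate 1 overlapped the HFHS ertugliflozin range. It rose by 0.39 ± 0.08 over both arms (SE, edgeR adjusted p = 0.0048), while neither arm alone passed, at 0.35 with drug (edgeR adjusted p = 0.0872) and 0.42 without (edgeR adjusted p = 0.0626).

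Col4a3, Col4a4 and Col4a5 encode the chains of another type IV network, best known from kidney glomerulus, lung and cochlea. Col4a4 had 21.1, 17.6, 20.4 and 19.5 CPM in HFHS ertugliflozin hearts, 19.1, 22.5, 17.0 and 18.6 CPM in HFHS untreated hearts, 15.2, 15.3, 15.4 and 11.6 CPM in CD ertugliflozin hearts and 14.8, 19.5, 18.2 and 16.9 CPM in CD untreated hearts. With drug every HFHS library lay above every CD library, and without drug the groups overlapped. It rose by 0.45 ± 0.11 with drug (SE, edgeR adjusted p = 0.0224) and by 0.30 ± 0.07 over both arms (edgeR adjusted p = 0.0133). Without CD ertugliflozin replicate 4, the lowest library, the call with drug ended, as it did without HFHS ertugliflozin replicates 1, 3 or 4 (edgeR adjusted p up to 0.0801). Its head-to-head neighbour Col4a3 averaged 8.89 ± 0.847 CPM in HFHS ertugliflozin hearts, 8.68 ± 1.66 CPM in HFHS untreated hearts, 7.47 ± 1.27 CPM in CD ertugliflozin hearts and 7.66 ± 1.28 CPM in CD untreated hearts (SD, n = 4 each), and did not pass over both arms at 0.22 ± 0.11 (edgeR adjusted p = 0.195).

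Col4a5 lay between 54.4 and 69.7 CPM in all 16 libraries and stood at 0.20 ± 0.07 with drug (SE, edgeR adjusted p = 0.127) and −0.049 ± 0.07 without (edgeR adjusted p = 0.777). Col4a6, which pairs with it in smooth muscle basement membranes, averaged 3.73 ± 1.07 CPM in HFHS ertugliflozin hearts, 3.79 ± 1.04 CPM in HFHS untreated hearts, 2.93 ± 0.705 CPM in CD ertugliflozin hearts and 5.01 ± 1.61 CPM in CD untreated hearts (SD, n = 4 each). Its highest libraries were CD untreated replicates 2 and 3, and its diet fold change without drug was −0.39 with them and 0.043 without them. In all, 3 of the 6 type IV genes rose over both arms and 0 fell, against 6.59% and 5.01% of all genes.

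**Figure D4:**
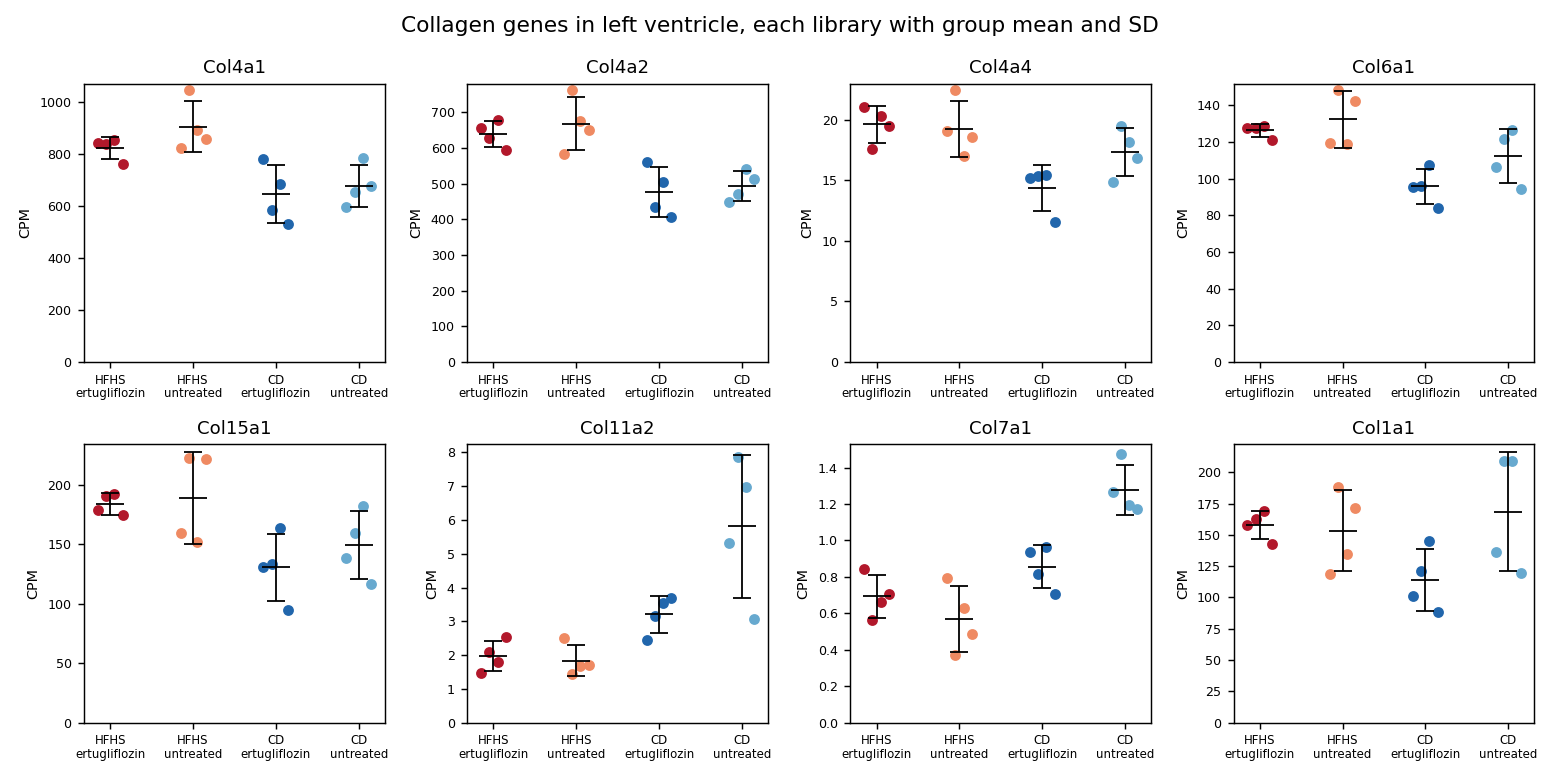
CPM of the 7 collagens that passed a test and of Col1a1, which did not, in each library (points) with group mean and SD (bars, n = 4), HFHS groups left and CD groups right. Col4a2 shows no overlap between the 8 HFHS and 8 CD libraries, Col11a2 and Col7a1 are low on HFHS, and Col1a1 overlaps throughout.

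Of the type VI genes 1 passed the test. Col6a1, the alpha 1 chain of the beaded filament, had 128, 128, 129 and 121 CPM in HFHS ertugliflozin hearts, 119.7, 149, 119 and 142 CPM in HFHS untreated hearts, 95.6, 96.1, 107 and 84.2 CPM in CD ertugliflozin hearts and 107, 122, 126 and 94.3 CPM in CD untreated hearts. The 4 HFHS ertugliflozin libraries were close to each other and above every CD ertugliflozin library, while the untreated groups overlapped. It rose by 0.40 ± 0.09 with drug (SE, edgeR adjusted p = 0.0235) and by 0.32 ± 0.07 over both arms (edgeR adjusted p = 0.00482), and stood at 0.24 ± 0.09 without drug (edgeR adjusted p = 0.2). The call with drug held without CD ertugliflozin replicate 3 or HFHS ertugliflozin replicate 4 but ended without any of the other 6 libraries of that comparison, with adjusted p up to 0.0632. Col6a2 did not pass over both arms at 0.29 ± 0.10 (edgeR adjusted p = 0.0735), nor did Col6a3 at 0.44 ± 0.15 (edgeR adjusted p = 0.0833). Col6a6, a chain that can replace the alpha 3 chain, was at 0.08 ± 0.08 (edgeR adjusted p = 0.578). All 4 tested type VI genes were above 0 in both diet comparisons. Without CD untreated replicates 2 and 3, Col6a2 and Col6a3 passed over both arms as well, at 0.41 and 0.60 (edgeR adjusted p = 0.00945 and 0.0377). Both genes were higher in the libraries left out than in CD untreated replicates 1 and 4.

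Col15a1 encodes type XV collagen, a basement membrane proteoglycan whose C-terminal fragment is restin. Its levels were 178, 191, 192 and 174 CPM in HFHS ertugliflozin hearts, 159, 223, 152 and 221 CPM in HFHS untreated hearts, 130.5, 133, 164 and 94.8 CPM in CD ertugliflozin hearts and 139, 159, 182 and 116 CPM in CD untreated hearts. It rose by 0.42 ± 0.12 over both arms (SE, edgeR adjusted p = 0.0463), a call near the threshold that 12 of the 16 libraries could each end when left out (adjusted p up to 0.0938) and that also ended under upper-quartile scaling and with no filter on low counts. The call held without HFHS untreated replicate 1 or 3, CD ertugliflozin replicate 3 or CD untreated replicate 3. Col18a1, the related gene of type XVIII collagen and of endostatin, was at 0.058 ± 0.20 (edgeR adjusted p = 0.893).

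None of the 3 genes of the main fibrillar collagens passed in any comparison. Col1a1 had 158, 163, 169 and 143 CPM in HFHS ertugliflozin hearts, 119, 188, 135 and 171 CPM in HFHS untreated hearts, 101, 121, 145 and 88.6 CPM in CD ertugliflozin hearts and 136, 209, 209 and 119 CPM in CD untreated hearts. The CD untreated group held both the highest 2 libraries, replicates 2 and 3, and values as low as 119 CPM. Without drug its diet fold change was −0.14 ± 0.21 (SE, 95% interval −0.59 to 0.32, edgeR adjusted p = 0.797), and 0.26 when those 2 libraries were left out. With drug it was 0.47 ± 0.21 (95% interval 0.015 to 0.93, edgeR adjusted p = 0.252), with 1 CD ertugliflozin library inside the HFHS ertugliflozin range. Col1a2 followed with 0.38 ± 0.19 with drug and −0.061 ± 0.19 without (edgeR adjusted p = 0.302 and 0.904). Col1a2, unlike Col1a1, had every HFHS ertugliflozin library above every CD ertugliflozin library.

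Col3a1, which forms thinner and more compliant fibrils with type I, averaged 359 ± 35.3 CPM in HFHS ertugliflozin hearts, 378 ± 92.4 CPM in HFHS untreated hearts, 267 ± 47.6 CPM in CD ertugliflozin hearts and 323 ± 83.4 CPM in CD untreated hearts (SD, n = 4 each). It stood at 0.43 ± 0.21 with drug (SE, edgeR adjusted p = 0.295) and 0.23 ± 0.21 without (edgeR adjusted p = 0.649). Col5a1, whose product helps to start type I fibrils, stood at 0.35 ± 0.12 with drug (edgeR adjusted p = 0.134) and 0.11 ± 0.12 without. Over both arms Col5a1 was at 0.23 ± 0.09 (edgeR adjusted p = 0.104). Without CD untreated replicates 2 and 3, Col1a2, Col5a1 and Col5a2 passed over both arms at 0.37, 0.34 and 0.40 (edgeR adjusted p = 0.0251, 0.0131 and 0.0316), whereas Col1a1 at 0.37 and Col3a1 at 0.50 did not (edgeR adjusted p = 0.114 and 0.0582). All of these genes were higher in the libraries left out than in CD untreated replicates 1 and 4.

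Many collagens that did not pass one by one were separated with drug. All 4 HFHS ertugliflozin libraries lay above all 4 CD ertugliflozin libraries for 12 of 34 collagens, Col4a2, Col4a4, Col4a5, Col6a1, Col6a2, Col6a3, Col1a2, Col5a1, Col5a2, Col27a1, Col8a1 and Col15a1, against 6.79% of all genes. For 0 of 34 they lay all below, against 6.38% of all genes. Without drug the HFHS libraries lay all above for Col4a1 and Col4a2, against 4.11% of all genes, and all below for Col11a2, Col13a1 and Col7a1, against 4.22%. The 2 diet comparisons share no library, and 18 collagens were higher on HFHS in both, 3 lower in both, 11 lower without and higher with drug, and 2 the other way.

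The difference between the 2 diet effects, which is the interaction of diet and drug, was not called for any collagen by edgeR, against 0.0189% of all genes called, nor by DESeq2. It had an unadjusted p under 0.05 for 7 of 34, against 4.27% of all genes. Its median over the 34 was 0.29 on the log2 scale, and 0.00056 without CD untreated replicates 2 and 3. For Col4a2 the diet effect with drug minus that without was −0.016 (95% interval −0.30 to 0.27, edgeR adjusted p = 1). For Col1a1 it was 0.61 (95% interval −0.0371 to 1.2497, edgeR adjusted p = 1).

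**Figure D5:**
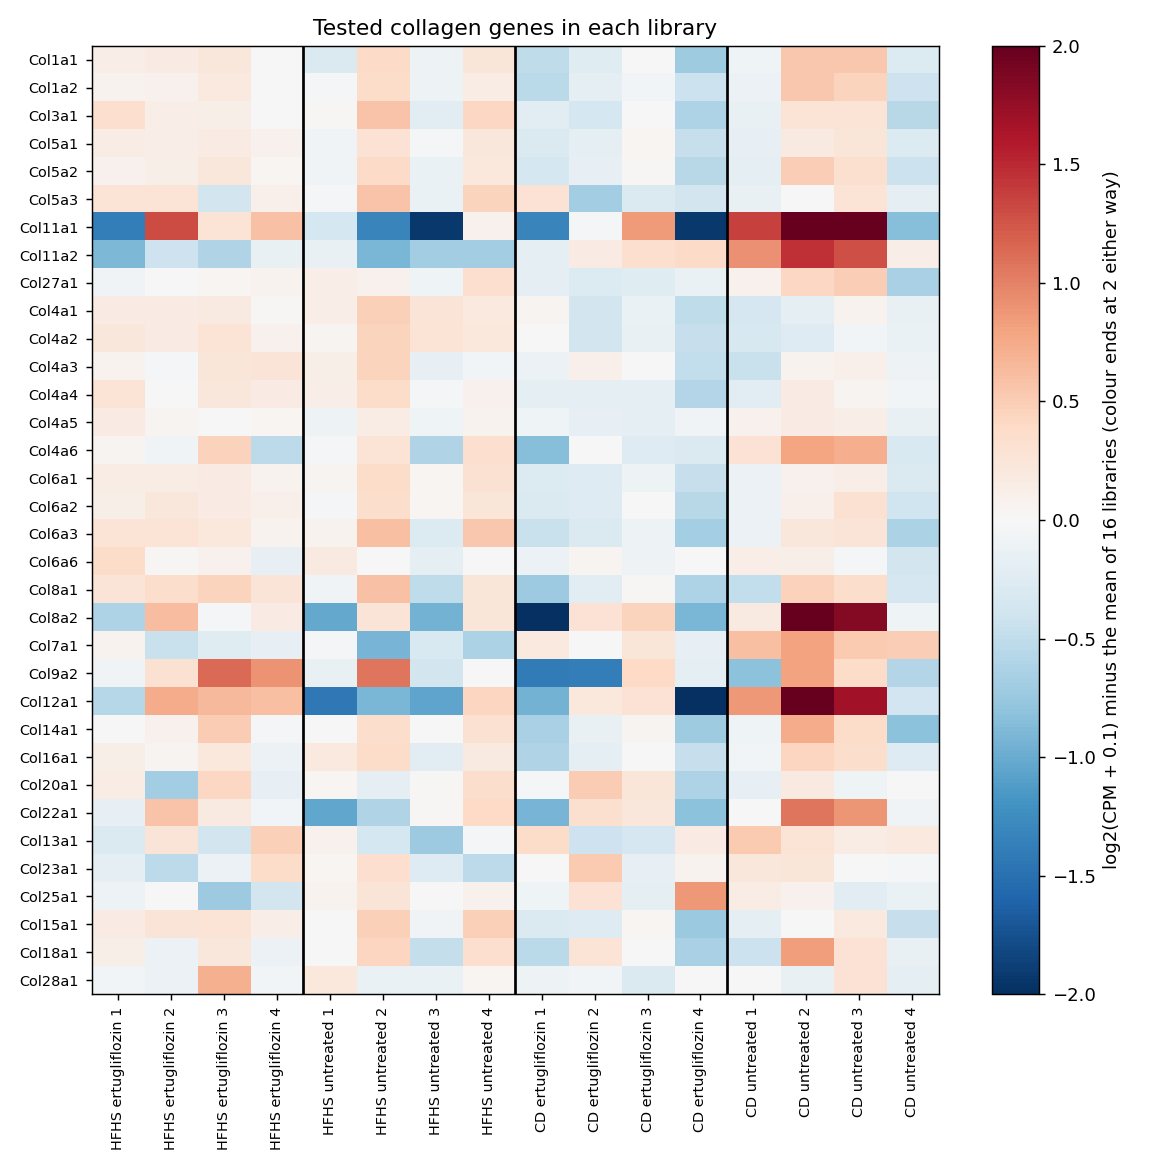
Log2(CPM + 0.1) of the 34 tested collagens minus each gene's mean over 16 libraries, with HFHS libraries left of CD libraries and colour ending at 2 either way. CD ertugliflozin replicate 4 is low for most genes, with a median deviation of −0.48, and HFHS untreated replicate 2 and CD untreated replicates 2 and 3 are high, with medians of 0.35, 0.27 and 0.29.

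The 2 collagens that fell are of low abundance. Col11a2, a chain of type XI collagen that is best known from cartilage, had 1.45, 2.08, 1.81 and 2.52 CPM in HFHS ertugliflozin hearts, 2.51, 1.44, 1.68 and 1.70 CPM in HFHS untreated hearts, 2.45, 3.14, 3.54 and 3.69 CPM in CD ertugliflozin hearts and 5.33, 7.85, 6.98 and 3.07 CPM in CD untreated hearts. Every HFHS untreated library lay below every CD untreated library. It fell by 1.67 on the log2 scale without drug (SE 0.26, edgeR adjusted p = 0.00318) and by 1.19 over both arms (SE 0.19, edgeR adjusted p = 0.000493), and stood at −0.71 ± 0.26 with drug (edgeR adjusted p = 0.149). The call without drug held without each of the 8 libraries in turn. Without CD untreated replicates 2 and 3, the libraries of highest valve and cartilage markers, it was −1.20 with an edgeR adjusted p of 0.0525, and over both arms −0.95 with an edgeR adjusted p of 0.00326. Most of these markers were still lower on HFHS without drug in that fit.

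Col7a1, the chain of the anchoring fibrils of type VII collagen that tie the epidermal basement membrane to the dermis, had 7 to 27 counts in a library. Its levels were 0.845, 0.562, 0.663 and 0.704 CPM in HFHS ertugliflozin hearts, 0.791, 0.373, 0.632 and 0.484 CPM in HFHS untreated hearts, 0.939, 0.813, 0.965 and 0.708 CPM in CD ertugliflozin hearts and 1.27, 1.47, 1.20 and 1.17 CPM in CD untreated hearts. The 4 CD untreated libraries were the 4 highest of the 16. It fell by 1.18 without drug (SE 0.25, edgeR adjusted p = 0.0182) and by 0.73 over both arms (SE 0.17, edgeR adjusted p = 0.0101), and stood at −0.29 ± 0.24 with drug (edgeR adjusted p = 0.61). Its call without drug was lost when HFHS untreated replicate 2 or 4, or replicate 2 of CD untreated, was left out (edgeR adjusted p up to 0.0749), under DESeq2 and in a fit of only these 2 groups. Without CD untreated replicates 2 and 3 together it was −1.11 with an edgeR adjusted p of 0.111.

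The 250 bases before the RefSeq starts of Col11a2 (chr17:34038888-34039137) and Col7a1 (chr9:108953336-108953585), both GRCm38.p6 and plus strand, are shown because these are the 2 collagens that fell. Capitals mark matches, on either strand, to 3 motifs of gene starts. GGGCGG is the core of the motif bound by Sp1-like factors. CCAAT is the core of the motif bound by NF-Y. TATAAA is the core of the motif bound by the general transcription machinery at some starts.
Col11a2 upstream: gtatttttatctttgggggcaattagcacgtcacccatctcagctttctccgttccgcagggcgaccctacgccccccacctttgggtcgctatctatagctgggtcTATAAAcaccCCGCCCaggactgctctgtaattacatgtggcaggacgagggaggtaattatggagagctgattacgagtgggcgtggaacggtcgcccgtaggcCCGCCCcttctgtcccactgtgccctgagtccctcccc
Col7a1 upstream: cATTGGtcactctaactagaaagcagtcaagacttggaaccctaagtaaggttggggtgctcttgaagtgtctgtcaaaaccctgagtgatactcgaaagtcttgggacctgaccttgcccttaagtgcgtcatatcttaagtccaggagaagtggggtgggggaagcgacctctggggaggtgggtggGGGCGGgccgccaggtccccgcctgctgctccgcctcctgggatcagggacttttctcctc
Col11a2 held TATAAA once and the reverse complement of GGGCGG 2 times, and Col7a1 held the reverse complement of CCAAT once and GGGCGG once. RefSeq windows of 300 bases, from 250 before to 50 after a start, were matched for 35 of the 44 collagens (38 windows). GGGCGG, on either strand, was in 60.5% of the collagen windows and in 35.7% of the 32851 windows of all genes. The median GC content was 59.8% in the collagen windows and 52.7% in all windows. CCAAT was in 34.2% of collagen windows against 37.4% of all, and TATAAA in 13.2% against 13.6%. These are matches of letters and no evidence of binding.

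None of the 6 tested fibril-associated (FACIT) collagens, which coat or link fibrils, passed in any comparison. Col11a1, a fibrillar collagen, and Col8a2, of type VIII, are given beside them but are not of this group. Col12a1, which coats type I fibrils in tendon and other dense tissue, had 3.10, 7.81, 7.35 and 7.04 CPM in HFHS ertugliflozin hearts, 1.65, 2.40, 2.18 and 6.30 CPM in HFHS untreated hearts, 2.35, 5.37, 5.68 and 0.961 CPM in CD ertugliflozin hearts and 8.56, 18.9, 15.04 and 3.52 CPM in CD untreated hearts. CD untreated replicates 2 and 3 were the highest of all 16 libraries, and the groups overlapped. It was at −1.87 ± 0.62 without drug (SE, edgeR adjusted p = 0.143) and at −0.92 without CD untreated replicates 2 and 3. Col11a1, the partner chain of Col11a2, had at most 35 counts in a library and was at −3.01 ± 0.95 without drug (edgeR adjusted p = 0.118), or −1.74 without those 2 libraries. Col8a2, a type VIII chain known from the corneal endothelium, averaged 1.44 ± 0.724 CPM in HFHS untreated hearts and 4.45 ± 3.13 CPM in CD untreated hearts (SD, n = 4 each) and was at −1.60 ± 0.62 without drug (edgeR adjusted p = 0.212), or −0.28 without CD untreated replicates 2 and 3. Col22a1, found at tissue junctions of muscle, was at −0.81 ± 0.37 (edgeR adjusted p = 0.28), or −0.18 without them.

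The other fibril-associated genes, Col9a2, Col20a1, Col14a1 and Col16a1, ranged widely in level. Col8a1, of type VIII, and the transmembrane collagens are given after them and are of other groups. Col9a2, a chain of type IX collagen known from cartilage, had 1 to 14 counts in a library and stood at 1.35 ± 0.60 with drug (SE, 95% interval 0.10 to 2.6, edgeR adjusted p = 0.23), the largest of the 34 fold changes in that comparison, and at 0.24 ± 0.58 without drug (edgeR adjusted p = 0.876). Col20a1 stood at −0.013 ± 0.17 over both arms (edgeR adjusted p = 0.977). Col14a1 averaged 23.0 ± 4.26 CPM in HFHS ertugliflozin hearts, 23.2 ± 2.96 CPM in HFHS untreated hearts, 16.4 ± 4.30 CPM in CD ertugliflozin hearts and 23.1 ± 9.85 CPM in CD untreated hearts (SD, n = 4 each). Col16a1 averaged 15.1 ± 1.44 CPM in HFHS ertugliflozin hearts, 15.9 ± 2.54 CPM in HFHS untreated hearts, 11.7 ± 2.22 CPM in CD ertugliflozin hearts and 15.9 ± 3.53 CPM in CD untreated hearts (SD, n = 4 each), and its edgeR adjusted p was 0.228 with drug. Col8a1, which makes short-chain networks in vessel walls, stood at 0.69 ± 0.26 with drug (SE, edgeR adjusted p = 0.171) and 0.069 ± 0.26 without (edgeR adjusted p = 0.921). Among the transmembrane collagens, Col25a1 stood at −0.64 ± 0.30 with drug (edgeR adjusted p = 0.265), Col13a1 at −0.55 ± 0.27 without drug (edgeR adjusted p = 0.319) and Col23a1 at −0.19 ± 0.14 over both arms (edgeR adjusted p = 0.423). None of the 3 passed in any comparison.

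Ertugliflozin was compared with no drug on each diet. On HFHS, 0 of 34 collagens were called by edgeR, against 0.0% of all genes, 0 had an unadjusted p under 0.05 (4.02% of all genes did), and DESeq2 called 0. The median log2 fold change of the 34 was −0.0024, with 17 above and 17 below 0. Col4a2 was at −0.063 ± 0.09 (SE, 95% interval −0.26 to 0.14), Col6a1 at −0.068 ± 0.09 (95% interval −0.26 to 0.13) and Col1a1 at 0.044 ± 0.21 (95% interval −0.41 to 0.50), each with an edgeR adjusted p of 1. The largest sizes were those of Col11a1 at 1.54 ± 1.13 and Col12a1 at 0.99 ± 0.64, with intervals of −0.87 to 3.95 and −0.40 to 2.38. For 0 of 34 did the 4 treated libraries lie all above or all below, against 1.31% and 1.54% of all genes.

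On CD, 0 of 34 collagens were called by edgeR, against 0.0189% of all genes, and DESeq2 also called 0, while 14 had an unadjusted p under 0.05, against 6.17% of all genes. Of the 34, 31 were lower with the drug, with a median of −0.33 beside 0.0041 over all genes. This value depended on the libraries that stood apart: without CD untreated replicates 2 and 3 the median was −0.0094, and 12 of the 34 fold changes had the other sign. Col1a1 was at −0.56 ± 0.21 (95% interval −1.02 to −0.11, edgeR adjusted p = 0.762) and at −0.16 without them. Col7a1 was the 1 collagen whose CD ertugliflozin libraries lay all below the CD untreated ones, against 1.29% of all genes (0 collagens lay all above, against 1.78% of all genes), at −0.57 ± 0.22 (edgeR adjusted p = 0.762). Over both diets 0 collagens were called by edgeR, against 0.0% of all genes, 3 had an unadjusted p under 0.05 (5.57% of all genes did), and DESeq2 called 0. This comparison shares the CD untreated libraries with the diet comparison without drug, so the values of both move with those 4 libraries.

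Another 10 collagens were below the filter, and no test was made on them. Col9a3 had 3 to 19 counts in a library and Col26a1 had 1 to 13. Col6a5 had 0 to 14, Col2a1 0 to 7, Col24a1 0 to 6, Col9a1 0 to 6, Col17a1 0 to 4, Col19a1 0 to 3, Col6a4 0 to 2 and Col10a1 0 to 1 counts. Together they held 0.0157% to 0.0899% of collagen counts in a library. Of the 12 counts of Col9a1, a cartilage collagen gene, all but 1 came from CD untreated replicates 1, 2 and 3.

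Genes that modify, cut and cross-link procollagen were compared beside the collagens. As above, a change with drug is that of HFHS over CD among ertugliflozin-treated mice, and not an effect of the drug. Fkbp10, an endoplasmic reticulum prolyl isomerase needed for collagen cross-linking, had 33.8, 45.4, 35.3 and 32.9 CPM in HFHS ertugliflozin hearts, 27.9, 30.9, 32.4 and 34.3 CPM in HFHS untreated hearts, 20.8, 18.1, 19.3 and 21.6 CPM in CD ertugliflozin hearts and 24.3, 28.6, 25.9 and 18.4 CPM in CD untreated hearts. All HFHS ertugliflozin libraries lay above all CD ertugliflozin libraries, and its log2 fold change was 0.88 ± 0.12 with drug (SE, edgeR adjusted p = 0.000562) and 0.37 ± 0.12 without (edgeR adjusted p = 0.126). P3h4, which acts with lysyl hydroxylase 1 on procollagen, rose by 0.47 ± 0.10 with drug (edgeR adjusted p = 0.0114). Adamts2, which removes procollagen N-propeptides, rose by 0.48 ± 0.12 (edgeR adjusted p = 0.038), and Loxl2, a lysyl oxidase that cross-links type IV collagen, by 0.52 ± 0.13 (edgeR adjusted p = 0.0287). The calls of Fkbp10 and P3h4 held without each library, whereas that of Loxl2 ended without HFHS ertugliflozin replicate 2 or 3 or CD ertugliflozin replicate 2 or 4, and that of Adamts2 without any of 7 of the 8 (all but CD ertugliflozin replicate 3). Mmp13, a collagenase at low level, averaged 0.709 ± 0.395 CPM in HFHS ertugliflozin hearts and 1.93 ± 0.785 CPM in CD ertugliflozin hearts (SD, n = 4 each), and fell by 1.44 with drug (SE 0.33, edgeR adjusted p = 0.0176), a call that ended without CD ertugliflozin replicate 3 or HFHS ertugliflozin replicates 1, 3 or 4, under DESeq2 and in a fit of only these 2 groups.

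Over both arms, 3 of the 19 tested genes of procollagen modification rose and 0 fell, namely Fkbp10 at 0.63 ± 0.09, P3h4 at 0.36 ± 0.07 and Sparc, a collagen-binding glycoprotein, at 0.30 ± 0.07 (SE, edgeR adjusted p = 0.000213, 0.00277 and 0.0101). Beside this and the counts that follow, 6.59% of all genes rose and 5.01% fell in this comparison. Of the 13 genes of cleavage and cross-linking, 5 rose and 0 fell, with Loxl2 at 0.34 ± 0.09 (SE, edgeR adjusted p = 0.0203), Tll2 at 0.82 ± 0.23, Adamts2 at 0.31 ± 0.09, Loxl1 at 0.29 ± 0.08 and Adamts14 at 0.49 ± 0.15. Of the 13 genes of degradation, 0 rose and 1 fell, Mmp13. Of the 9 collagen receptors 4 rose and 0 fell, among them the integrin chain Itgb1 at 0.16 ± 0.03 (edgeR adjusted p = 0.00223) and the receptor kinase Ddr2 at 0.20 ± 0.05 (edgeR adjusted p = 0.0176). Itga11 and Adgrg1 were the other two. Of the 16 genes of transforming growth factor signalling 2 rose and 0 fell, Tgfb1 at 0.22 ± 0.06 and Smad3 at 0.24 ± 0.06, and of the 8 collagen-binding proteoglycans 0 passed. Several of these calls were not firm. With no filter on low counts those of Adamts2, Loxl1, Adgrg1 and Itga11 were lost, and with limma-voom with sample weights that of Itga11. That of Itga11 held only without HFHS untreated replicate 2 or CD untreated replicate 2, and that of Adamts14 only without HFHS ertugliflozin replicate 3, HFHS untreated replicate 2 or CD untreated replicate 1 or 4. That of Loxl1 held only without HFHS untreated replicate 1 or 3, CD ertugliflozin replicate 3 or CD untreated replicate 2, 3 or 4. HFHS ertugliflozin replicate 3 ended the calls of Adamts2, Tll2 and Adgrg1 when left out, as did HFHS untreated replicate 2 for Adamts2 and Adgrg1, CD ertugliflozin replicate 4 for Adamts2, CD untreated replicate 2 for Tll2 and Adgrg1 and CD untreated replicate 4 for Adamts2 and Tll2. Without CD untreated replicates 2 and 3 together, Tll2, Adgrg1 and Adamts14 did not pass (edgeR adjusted p = 0.0863, 0.113 and 0.153).

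Lox, the main fibrillar collagen cross-linker, Serpinh1, the collagen chaperone HSP47, and Postn, a matrix protein of activated fibroblasts, passed in none of the comparisons. Over both arms they stood at −0.13 ± 0.14, 0.057 ± 0.08 and 0.15 ± 0.25 (SE, edgeR adjusted p = 0.614, 0.706 and 0.751). Postn averaged 103 ± 23.6 CPM in HFHS ertugliflozin hearts, 87.1 ± 31.5 CPM in HFHS untreated hearts, 62.7 ± 22.4 CPM in CD ertugliflozin hearts and 116 ± 47.0 CPM in CD untreated hearts (SD, n = 4 each). Without drug 1 of the 78 tested companion genes was called, against 2.06% of all genes. This was Itgb1 at 0.18 ± 0.04 (edgeR adjusted p = 0.0383), a call that ended without HFHS untreated replicate 2 or 3 or any 1 CD untreated library. It also ended without CD untreated replicates 2 and 3 together (edgeR adjusted p = 0.0956), under upper-quartile scaling, with no filter on low counts and in a fit of only these 2 groups. By edgeR 0 were called for the drug on HFHS, the drug on CD, their average and the interaction, against at most 0.0189% of all genes. At an unadjusted p under 0.05 there were 1, 20, 10 and 9 of the 78, against 4.02%, 6.17%, 5.57% and 4.27% of all genes. All of these comparisons but the drug on HFHS use the CD untreated libraries, with the replicates 2 and 3 that stood apart.

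Markers of cell types that make collagen were measured beside them. The 12 endothelial markers summed to 1981 to 2217 CPM in HFHS ertugliflozin hearts, 2063 to 2425 CPM in HFHS untreated hearts, 1898 to 2025 CPM in CD ertugliflozin hearts and 1808 to 2003 CPM in CD untreated hearts. All 12 were higher on HFHS without drug, and Kdr and Cdh5 passed, at 0.46 ± 0.07 and 0.35 ± 0.07 (SE, edgeR adjusted p = 0.00386 and 0.0157), where 1.45% of all genes rose. With drug 10 were higher and 2 lower, 0 passed by edgeR, and the median was 0.076, against 0.20 without drug. Over both arms 3 of the 12 rose and 0 fell, against 6.59% and 5.01% of all genes, with 11 higher and 1 lower. A fit without CD untreated replicates 2 and 3 was added for the marker lists after seeing the data. In it 11 of the 12 were higher on HFHS without drug and 0 passed by edgeR. Over both arms Kdr and Cdh5 still rose in that fit, where 4.96% of all genes rose. The sum of 16 fibroblast markers was 2365 to 2536 CPM in HFHS ertugliflozin hearts, 2328 to 2676 CPM in HFHS untreated hearts, 1985 to 2376 CPM in CD ertugliflozin hearts and 2171 to 2696 CPM in CD untreated hearts. Of them Pdgfra rose in both diet comparisons, at 0.25 ± 0.07 with drug and 0.35 ± 0.07 without (edgeR adjusted p = 0.0414 and 0.0103), and Smoc2 rose with drug. None of the other 14 passed in these comparisons, and 7 of the 16 were lower on HFHS with drug and 6 without. The 10 tested markers of activated fibroblasts were all lower on HFHS without drug and all higher with drug, with 0 called by edgeR in either, and 3 without and 1 with drug at an unadjusted p under 0.05. The direction without drug rested on the libraries that stood apart. Comp and Thbs4 are in this list and also among the valve and cartilage markers by which those libraries stood apart. The 11 markers of that list summed to 374, 537, 339 and 509 CPM in HFHS untreated hearts, against 377, 925, 715 and 389 CPM in CD untreated hearts, and without CD untreated replicates 2 and 3, 7 of the 10 were higher and 3 lower. Of 11 pericyte and smooth muscle markers, 3 rose over both arms (Notch3, Pdgfrb and Vtn) and 0 fell, against 6.59% and 5.01% of all genes. Without those 2 libraries Notch3 and Vtn passed. The part of these cell types in the collagen values was not tested.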

How the data were processed

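Per the labels' protocols, poly(A) RNA of left ventricle was made into libraries that mark the strand. The authors deposited raw counts of reads per gene, and the submitters' processing notes name FastQC 0.11.7, STAR 2.6.0c, featureCounts of Subread 1.6.2 and DESeq2 1.22.1, with mm10 as the build. The authors also deposited regularized log2 values, used here in 1 limma alternative. The strand setting of the counting is not given in the sources used here. Of 53764 gene rows, 53583 matched a GENCODE symbol.

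From these counts, genes that passed edgeR's filterByExpr (15841) were fitted in 1 quasi-likelihood model of 4 groups over 16 libraries (edgeR 4.0.16, R 4.3.3, TMM scaling, robust dispersions). The 7 contrasts were adjusted by Benjamini-Hochberg over all genes, with a threshold of 0.05. Effects are log2 fold changes, SE is the fold change over the square root of F, and intervals are 95%. The procedure was tested on simulated data. With 14637669 to 21452212 counts per library, the 34 tested collagens rested on 102 to 216594 counts summed over the libraries. Alternatives were other scalings and filters, DESeq2 1.42.0, limma 3.58.1, a replicate block, the compared groups alone and left-out libraries.

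Members, lists and alternatives were chosen with earlier results of these data known. Genes named are collagens past the threshold, the 3 of smallest p per contrast, the 10 of highest level per length, those below the filter, companion genes past the threshold with the smallest p (at most 4 per list and contrast), Lox, Serpinh1 and Postn. Others were named after their values were seen.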

Additional observations from a re-analysis of the deposited data

Results flagged for a closer look

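For the 18 named collagens each group of 4 libraries was checked for a library that stood far from its nearest neighbour, measured as the gap over the range of the group against Dixon's 95% critical value. Of 72 groups 5 passed it, and chance alone gives about 1 in 20.

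HFHS ertugliflozin replicate 4 was the lowest of its group for 2 of them. Its Col4a1 level was 760.341 CPM, against 839 to 852 CPM in the other HFHS ertugliflozin libraries, and its Col6a1 level was 121.392 CPM, against 127.6 to 128.8 CPM. CD ertugliflozin replicate 4 had 11.5771 CPM of Col4a4, below the 15.2 to 15.4 CPM of the other CD ertugliflozin libraries, and was also the library with the lowest median deviation over the tested collagens (−0.48 on the log2 scale). HFHS ertugliflozin replicate 1 had 3.097 CPM of Col12a1, below the 7.04 to 7.81 CPM of its group. HFHS untreated replicate 4 had 6.29646 CPM of Col12a1, above the 1.65 to 2.40 CPM of its group.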

How the results depend on the processing

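No called fold change changed sign under any setting tried. Signs of collagens that were not called did change without CD untreated replicates 2 and 3: 6 of 34 without drug (Col1a1, Col1a2, Col4a5, Col4a6, Col18a1 and Col27a1), 4 over both arms, 12 for the drug on CD, 11 for the drug over both diets and 11 in the interaction. The collagen medians near 0 also changed sign, that without drug ranging from −0.11 without CD untreated replicate 4 to 0.34 without replicates 2 and 3, and that of the drug on HFHS up to 0.083 without HFHS untreated replicate 2. In all, 0 collagens were called in either drug comparison, their average or the interaction in any setting, DESeq2 and limma included. Without drug the count of 3 called collagens ranged from 1 to 4 when 1 library was left out and was 0 without CD untreated replicates 2 and 3 together. With drug the count of 3 ranged from 0 to 3 when 1 library was left out. It was 0 without HFHS ertugliflozin replicate 1 or 3 and 1 without CD ertugliflozin replicate 2 or 4. It was 7 in a fit of the compared groups alone and 6 with DESeq2. Over both arms the count of 7 became 12 without CD untreated replicates 2 and 3. Over all genes, the 327 calls without drug became 607 with DESeq2, 743 with limma-voom, 136 in the groups alone and 97 without those 2 libraries. A library on HFHS moved them most, as leaving out HFHS untreated replicate 1 gave 846 calls without drug. Over both arms the same step gave 2530 calls, against 1837 with all libraries. The 584 calls with drug became 906 with DESeq2. The cause of these changes was not tested.

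The replicate numbers did not pair the libraries. Over 24 same-numbered pairs the correlation of deviations ran from −0.24 to 0.313, 6 of them over 0.1, and 2 libraries correlated best with their own number. With the replicate block the counts were 3 without drug, 3 with drug and 8 over both arms, where Col6a2 was added at 0.30 (edgeR adjusted p = 0.0312). It called 0 in the other comparisons.

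Depth limits the collagens of low level: Col7a1 rested on 7 to 27 counts in a library and Col11a2 on 24 to 144, and the 10 untested genes on at most 19. Groups of 4 picked animals limit the precision of each comparison.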

Other observations

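Macrophage and heart muscle markers were measured beside the collagens. With drug all 12 macrophage markers were lower on HFHS, with 0 called by edgeR, while without drug 5 were higher and 7 lower. Over both arms 10 were lower and 2 higher, and 1 fell, against 5.01% of all genes. Without CD untreated replicates 2 and 3, 9 were lower and 3 higher over both arms, and 0 fell. Of the 10 ventricular cardiomyocyte markers 5 fell on HFHS with drug (Myl2, Myl3, Pln, Tnni3 and Tnnt2), against 1.53% of all genes. Myl2, the ventricular myosin light chain, fell by 0.23 on the log2 scale (SE 0.06, edgeR adjusted p = 0.0403) and Tnni3, cardiac troponin I, by 0.25 (SE 0.06, edgeR adjusted p = 0.0336). None of the others passed, and 2 of the 10 were higher. Without drug 0 were called, 7 were lower and 3 higher, and the median was −0.12 in both comparisons. Over both arms 5 of the 10 cardiomyocyte markers fell, against 5.01% of all genes, with 8 lower and 2 higher. The 5 named above also fell over both arms without CD untreated replicates 2 and 3, against 3.7% of all genes. Summed, the 10 ran from 98800 to 107446 CPM in HFHS ertugliflozin hearts and from 102677 to 115403 CPM in CD ertugliflozin hearts. Their part in the collagen values was not tested.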
